A study of Danio rerio with 18 samples.

Results

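The mRNAs described here encode 4 zebrafish histones: the maternal linker histone h1m and the H2A proteins h2af1al, h2ax and hist1h2a2. They are the genes of a table of 27015 genes whose symbol, ignoring case, is one of these names, and 1 gene matched each name. Their levels in all 18 libraries were known when they were picked, so their own values are a description and carry no test. Eggs and embryos of the wild-type AB strain were pooled as whole embryos at 6 stages: egg, 1-cell, 16-cell, 128-cell, 3.5 hours post fertilization (hpf) and 5.3 hpf. For every stage there are RNA that sedimented with polysomes (bound), RNA that did not (unbound) and RNA that was not fractionated. Every group is therefore 1 library of untreated AB embryos of 1 stage, and no group has a replicate. The size of each pool is not given in the sources used here. A pool measures RNA summed over cells, so fewer cells that hold an mRNA and less of it per cell cannot be told apart.

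In a nucleosome DNA is wrapped around the core histones H2A, H2B, H3 and H4, and a linker histone of the H1 family binds the DNA between nucleosomes. Fish and frog eggs store linker and core histones and their mRNAs, which serve the fast early divisions before the embryo's own genome is transcribed. Most core histone genes lie in clusters, and in animals their mRNAs usually end in a stem-loop in place of a poly(A) tail. An mRNA that many ribosomes translate at once sediments with polysomes, so the ratio of the bound to the unbound fraction is commonly read as a measure of ribosome loading. Ribosomal RNA was depleted from these samples and no poly(A) selection is listed, per the labels.

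Reads assigned to transcripts, in units of 1e6 reads, numbered 50.75 to 66.05 per bound library, 30.67 to 71.65 per unbound library and 35.78 to 60.15 per unfractionated library. Levels are given as normalized counts, which are treated as reads divided by 1 size factor per library. Ratios are given as log2 of bound over unbound at the same stage. TPM values, a library's transcripts scaled to a fixed total, take length into account. They are used where the 4 histones are ranked or set against each other. The sums over marker genes and over cluster H2A genes are of normalized counts, which are not corrected for length. Each of the 4 genes was tied to exactly 1 transcript. Intervals on reads are 95% Poisson intervals. Those on log2 ratios come from 95% binomial intervals for bound among bound plus unbound reads, shifted by the size factors. Both cover counting error only. Summed over 8 oocyte genes, unfractionated levels were 5487 to 34773 normalized counts at 3.5 and 5.3 hpf and 104687 to 113533 at the 4 earlier stages. For 9 early zygotic genes the sums were 24782 to 127492 at the late stages and 1052 to 1196 at the early ones, which is the order the stage labels give. Sums over 4 blood genes were 46.3 to 79.4 normalized counts late and 14.0 to 22.6 early. Sums over 9 ovarian follicle genes were 3269 to 6861 late and 5061 to 7162 early. CYP17A1 alone made up most of the follicle sums, with 6377 and 2843 normalized counts late and 4837 to 6991 early. amh, the next highest, had 210 and 198 late and 87.2 to 112 early. The part of these other cell types in the results was not tested.

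h1m (ENSDARG00000102892.1, transcript length 1336 nt), the linker histone of the egg and early embryo, was among the most abundant mRNAs on polysomes until the 128-cell stage. In the bound fraction it had 322735, 272100, 304672, 205798, 83860 and 20960 normalized counts from egg to 5.3 hpf. In the unbound fraction it had 20066, 24031, 24089, 23229, 47273 and 12056, and unfractionated it had 74024, 51737, 55425, 46419, 41242 and 15408. With these size factors bound exceeded unbound at all 6 stages, but the gap was wide in the 4 early stages and narrow in the 2 late ones. The unbound library of 3.5 hpf held more h1m than any other unbound library, at the stage where the bound level was already lower than at 128 cells.

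As a log2 ratio of bound over unbound, h1m stood at 4.01, 3.50, 3.66, 3.15, 0.83 and 0.80 in stage order. The median over all genes was −0.01 in the egg, −0.21 at 3.5 hpf and −0.38 at 5.3 hpf. In fold terms h1m was 16.1 times higher bound than unbound in the egg and 1.77 times at 3.5 hpf, with a 95% counting interval of 0.81 to 0.84 on the log2 scale at 3.5 hpf. The ratio in the egg was at percentile 98.3 of 21578 genes and that at 3.5 hpf at percentile 77.5 of 24141 genes. The 52340 entries ranked by TPM include 4 control-like sequences. These had 519280 to 1255619 reads per bound library and 5 to 59 per unfractionated one, so ranks of the 2 kinds are not strictly alike. Among all entries h1m ranked 2 in the bound library of the egg, with 6353 TPM, and 321 at 5.3 hpf, with 400 TPM. Unfractionated, it had 2182 TPM in the egg (rank 8) and 377 TPM at 5.3 hpf (rank 347). At 3.5 hpf its unfractionated level was 1.13-fold lower than at 128 cells, and at 5.3 hpf it was 2.68-fold lower than at 3.5 hpf. The unfractionated level of h1m at 3.5 hpf lay below both fractions of that stage, so it is not set against the bound level.

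h2af1al (ENSDARG00000098739.1, 561 nt), annotated as an H2A family member, had a polysome ratio close to that of h1m in the early stages and a lower one than h1m in the late stages. Bound, it had 58504, 58048, 46191, 53129, 3297 and 747 normalized counts in stage order. Unbound, it had 3841, 6090, 4640, 4223, 4925 and 1363 normalized counts. The bound level at 3.5 hpf lay far below all 4 earlier bound levels, while the unbound level at 3.5 hpf lay within the range of the earlier ones.

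The log2 ratio of h2af1al was 3.93, 3.25, 3.32, 3.65, −0.58 and −0.87, so it passed below 0 between 128 cells and 3.5 hpf. Its range over the 4 early stages, 3.25 to 3.93, lay inside that of h1m, 3.15 to 4.01. At 3.5 hpf it was at percentile 39.6 of all genes and at 5.3 hpf at percentile 26.7, against 77.5 and 87.8 for h1m. With these size factors h1m was thus higher bound than unbound in both late stages, and h2af1al was not. In TPM, h2af1al ranked 8 in the bound library of the egg with 3627 TPM and 3377 at 5.3 hpf with 44.9 TPM.

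Unfractionated h2af1al did not follow a smooth course: it had 3936, 8231, 2908, 10060, 1969 and 914 normalized counts in stage order. The 1-cell and 128-cell libraries were both higher than the egg and 16-cell libraries. The level at 128 cells was 3.46-fold that at 16 cells, and the level at 3.5 hpf was 5.11-fold lower than at 128 cells. h2ax showed the same alternation, with 1922, 4868, 1776, 4837, 2422 and 18624 normalized counts unfractionated. The pattern was looked for after it had been seen. Among all genes, 17.2% of 23949 had both 1-cell and 128-cell above egg and 16-cell, and 3.29% had it by at least 1.5-fold, against 2 of the 4 histones by either measure, 4 of 7 cluster histone genes by 1.5-fold and 0 of 10 other variant genes by 1.5-fold. The median of 1181 transcripts of 500 to 800 nt did not alternate and lay between −0.02 and 0.11 on the log2 scale in these 4 libraries. A median over normalized transcripts cannot show what single mRNAs did, and that length range leaves out cluster genes such as hist1h2a11 (384 nt). The alternation was thus seen in some histone mRNAs and not in others such as h1m and hist1h2a2, and the part of library preparation in it was not tested.

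**Figure D1:**
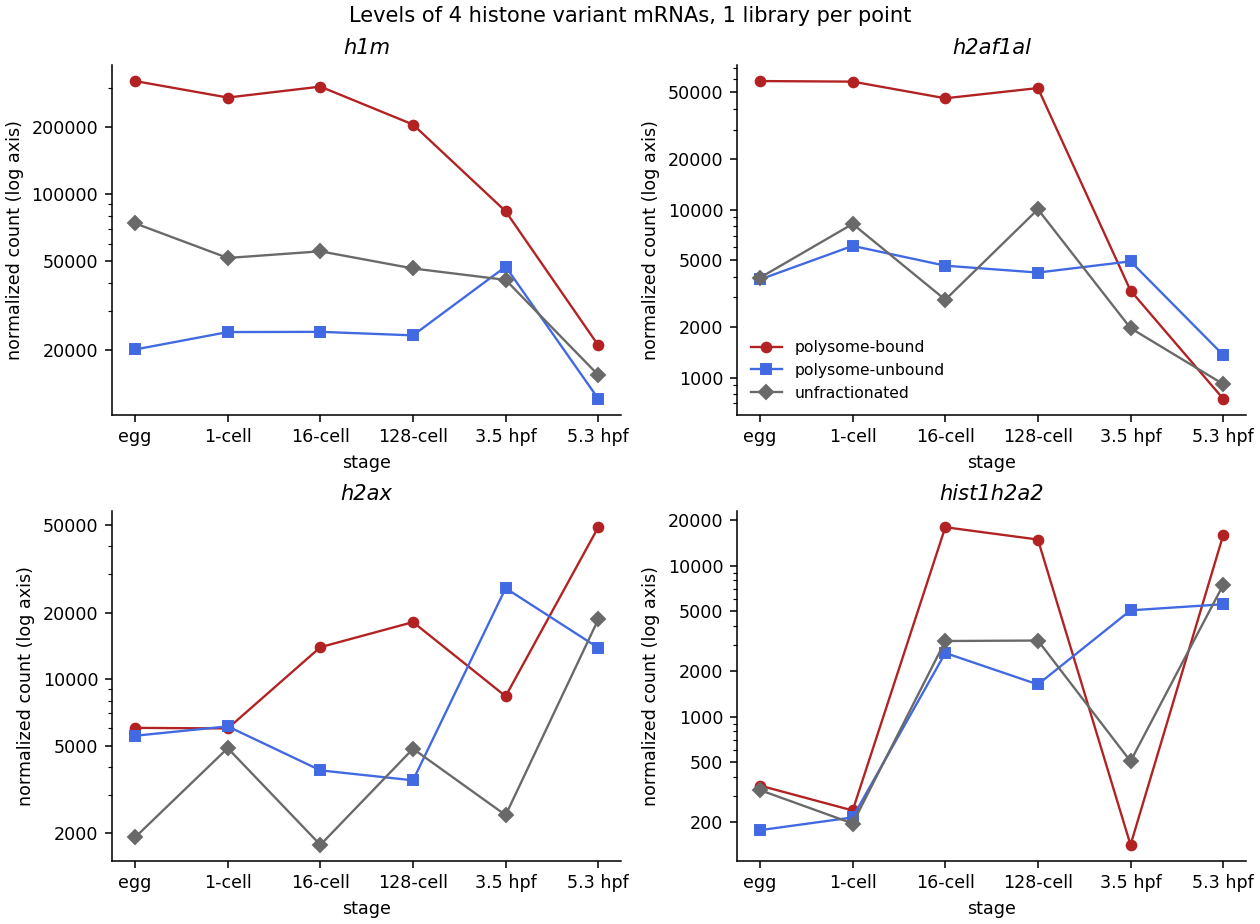
Normalized counts (log axis) of h1m, h2af1al, h2ax and hist1h2a2 at the 6 stages, with bound libraries as red circles, unbound as blue squares and unfractionated as grey diamonds, 1 library per point and no error bars. Bound h1m and h2af1al lie above unbound until 128 cells, and bound hist1h2a2 is at 142 at 3.5 hpf, between 14938 at 128 cells and 15945 at 5.3 hpf.

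h2ax (ENSDARG00000029406.3, 626 nt) encodes the H2A variant that is phosphorylated beside DNA breaks. With the size factors h2ax was evenly spread between the fractions in the egg and at 1 cell and was polysome-rich at 16 cells, 128 cells and 5.3 hpf. Bound, it had 6015, 5978, 13947, 18113, 8362 and 48701 normalized counts in stage order. Unbound, it had 5540, 6109, 3863, 3481, 25789 and 13855. The highest bound level was at 5.3 hpf and the highest unbound level at 3.5 hpf.

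Its log2 ratio was 0.12, −0.03, 1.85, 2.38, −1.62 and 1.81. At 1 cell the 95% counting interval of −0.09 to 0.02 included 0. The value at 3.5 hpf corresponds to 3.08-fold more in the unbound than in the bound library, and that at 5.3 hpf to 3.51-fold more in the bound library. At 5.3 hpf it was at percentile 98.2 of 24745 genes, and at 3.5 hpf at percentile 18.5 of 24141. h2ax ended among the leading mRNAs, with 2478 TPM on polysomes at 5.3 hpf (rank 45). Unfractionated, its level at 5.3 hpf was 7.69-fold that at 3.5 hpf. Another gene of like name, h2ax1 (ENSDARG00000068995.4), is among the variant genes tested below. The log2 ratios of h2ax1 were −0.33, −0.90, 0.75, 0.31, −0.42 and 0.36, so the values of h2ax do not stand for both genes.

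hist1h2a2 (ENSDARG00000103015.1, 733 nt), a cluster H2A gene, was low in the egg and at 1 cell and higher from the 16-cell stage, apart from the bound and unfractionated libraries of 3.5 hpf. Bound, it had 350, 240, 18029, 14938, 142 and 15945 normalized counts in stage order. Unbound, it had 177.5, 216, 2648, 1638, 5076 and 5566. Unfractionated, it had 327, 197, 3179, 3201, 508 and 7471, so all 3 kinds of library were low in the egg and at 1 cell and higher at 16 cells. The step to 16 cells was 16.1-fold in the unfractionated libraries, larger than any step of the other 3 histones between neighbouring stages.

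At 3.5 hpf the fractions of hist1h2a2 parted: the bound library held 145 reads (95% interval 122 to 171) and the unbound library 7830 reads. As a log2 ratio of bound over unbound this was −5.15, with a counting interval of −5.41 to −4.92, at percentile 1.30 of 24141 genes. At the other stages in order the ratio was 0.98, 0.15, 2.77, 3.19 and, at 5.3 hpf, 1.52. The 3.5 hpf value is the lowest of the 24 ratios described here and rests on 1 pair of libraries. In TPM the bound level was 685 at 16 cells (rank 151), 7.37 at 3.5 hpf (rank 13806) and 648 at 5.3 hpf (rank 201).

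Near-identical copies could share reads with hist1h2a2, and the sharing was not tested. Summed with the 4 other hist1h2a genes in the table, the unfractionated level was 3132, 6214, 5629, 7965, 3615 and 20089 normalized counts in stage order. The sum at 16 cells was thus close to that at 1 cell, although hist1h2a2 itself differed 16.1-fold between them. In these counts, which are not corrected for length, hist1h2a2 made up 3.16% of the sum at 1 cell, 56.5% at 16 cells and 14.0% at 3.5 hpf. Its transcript is the longest of those summed (733 nt, against 384 to 643 nt). Its shares of the unfractionated and bound sums are therefore higher than they would be per length. In the bound libraries the sum was 9402, 7863, 32128, 28842, 11121 and 38877. hist1h2a2 itself was 56.1% of the bound sum at 16 cells, so the higher value there is no separate evidence of a step. The 4 other genes alone held 7623 normalized counts at 1 cell and 14099 at 16 cells bound, and 6018 and 2450 unfractionated. hist1h2a2 was 1.28% of the bound sum at 3.5 hpf and 51.8% at 128 cells. The 4 other genes together held 10980 normalized counts bound and 11772 unbound at 3.5 hpf, a far smaller gap than that of hist1h2a2 alone.

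**Figure D2:**
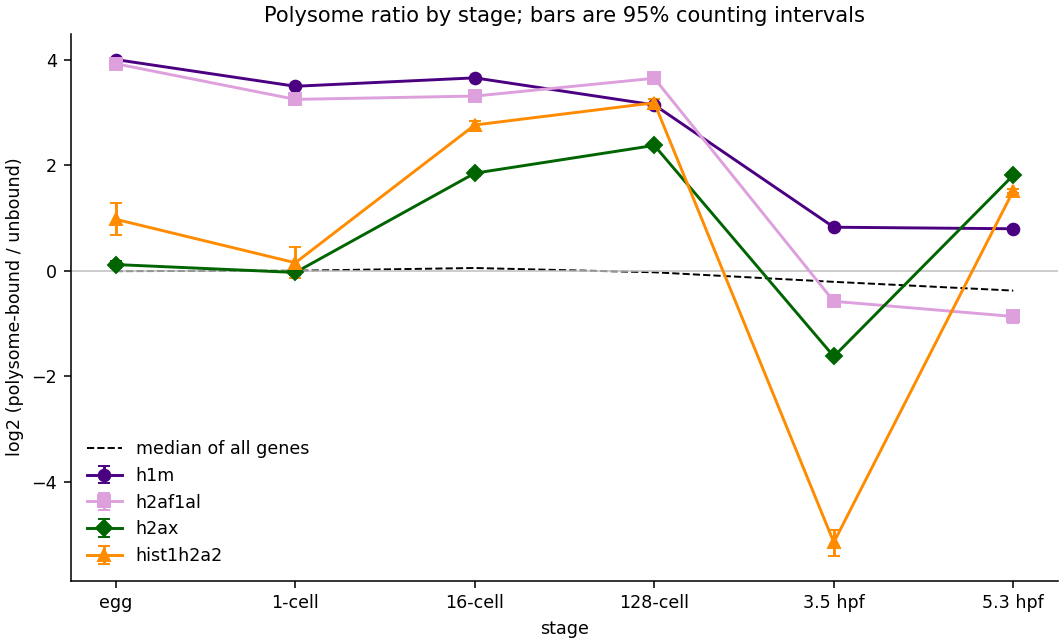
The log2 ratio of polysome-bound over unbound for each of the 4 mRNAs by stage, with bars for 95% counting intervals, which cover counting error only, and a dashed line for the median of all genes. h1m and h2af1al lie between 3.15 and 4.01 up to 128 cells and at or below 0.83 afterwards, while h2ax and hist1h2a2 are highest at 128 cells, negative at 3.5 hpf and positive at 5.3 hpf.

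The maternal pair and the other pair therefore differed in course. With the size factors h1m and h2af1al had their highest ratio in the egg. On that scale their mean ratio over the 4 early stages was 3.58 ± 0.36 and 3.54 ± 0.31 (SD over stages, n = 4). For h2ax and hist1h2a2 the early means were 1.08 ± 1.22 and 1.77 ± 1.44, with ratios at 16 and 128 cells above those in the egg and at 1 cell. The late ratios were 0.80 and 0.83 for h1m and −0.87 and −0.58 for h2af1al, below every early value of the same gene. Late ratios lay below every early one in 23.6% of all 24893 genes too. For h2ax, of the late values −1.62 lay below and 1.81 inside the early range of −0.03 to 2.38. For hist1h2a2, −5.15 lay below and 1.52 inside the early range of 0.15 to 3.19. As late minus early the ratio was −2.77 ± 0.50 for h1m, −4.26 ± 0.36 for h2af1al, −0.99 ± 0.96 for h2ax and −3.59 ± 1.53 for hist1h2a2 (log2 ± SE, 12 libraries). The values for h2ax and hist1h2a2 rest on 3.5 hpf: without it they were 0.73 and −0.25.

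All these ratios rest on the size factors. The 4 control-like sequences in the transcript files were counted 519280 to 1255619 times in the bound and 199771 to 650402 times in the unbound libraries. Scaled to them, the h1m ratio was 2.33 in the egg and −0.82 at 3.5 hpf, and the h2ax ratio was −1.56 in the egg and 2.01 at 5.3 hpf. On that scale the median log2 over all genes and stages was −1.34, against −0.01 with the size factors. Whether these sequences were added in equal amounts is not given in the sources used here. Ratios between genes within a library do not depend on the scaling. In the egg the log2 ratio of h2af1al over h2ax in TPM was 3.52 in the bound and −0.29 in the unbound library, and at 5.3 hpf it was −5.79 in the bound and −3.11 in the unbound library. h2af1al was therefore the more polysome-rich of the 2 in the egg and the less polysome-rich at 5.3 hpf whatever the scaling.

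Set against each other by TPM, the 3 H2A mRNAs stood in a different order in the egg and at 5.3 hpf. h2af1al was 91.6% of their summed TPM in the bound library of the egg, 91.7% at 1 cell, 65.8% at 16 cells, 67.6% at 128 cells, 31.5% at 3.5 hpf and 1.42% at 5.3 hpf. In the unbound libraries its share was 44.4%, 53.4%, 47.8%, 51.0%, 16.3% and 8.08% in stage order. From the egg to 3.5 hpf the maternal H2A mRNA thus took a larger share on polysomes than off them, and only at 5.3 hpf a smaller one. At 5.3 hpf h2ax took 78.1% of the bound sum and 72.5% of the unfractionated sum, where h2af1al took 4.20%. At 3.5 hpf, h2ax and h2af1al were near parity unfractionated, with 213 and 205 TPM. In both fractions of that stage h2ax was above h2af1al, 2.15-fold bound and 4.44-fold unbound. The unfractionated ratio thus lay outside those of both fractions, and the reason was not tested.

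**Figure D3:**
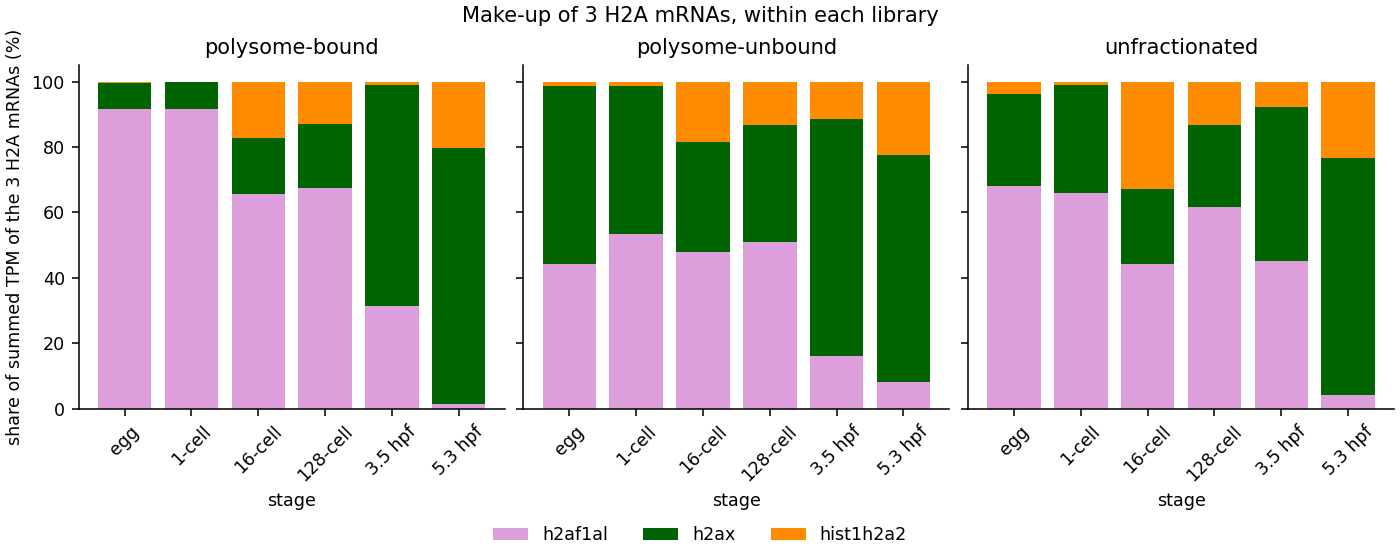
Share in percent of h2af1al (light purple), h2ax (green) and hist1h2a2 (orange) in the summed TPM of these 3 H2A mRNAs, by stage, in the bound, unbound and unfractionated libraries, 1 library per bar. h2af1al fills 91.6% of the bound bar in the egg and 1.42% at 5.3 hpf, where h2ax fills 78.1%.

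By TPM in the unfractionated libraries the order of the 4 mRNAs was h1m, h2af1al, h2ax and hist1h2a2 in the egg, with 2182, 365, 151 and 20.6 TPM. At 16 cells hist1h2a2, with 207 TPM, stood between h2af1al with 279 TPM and h2ax with 144 TPM. At 5.3 hpf the order was h2ax with 1215 TPM, hist1h2a2 with 390 TPM, h1m with 377 TPM and h2af1al with 70.4 TPM. hist1h2a2 and h1m were the closest neighbours in the late order, and with 1 library a stage their order has no replicate check. These orders hold for the unfractionated libraries only, where ratios between the mRNAs did not always lie between those of the fractions.

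Unfractionated levels before and after genome activation were compared as 3.5 and 5.3 hpf against the 4 earlier stages. h1m was lower late, with 41242 and 15408 normalized counts, than early, with 46419 to 74024, and the groups did not overlap. h2af1al was also lower late, with 1969 and 914 against 2908 to 10060, again without overlap. Of all 23949 genes, 22.4% were lower late than in every early library, so this separation is common in the table. For h2ax, 2422 and 18624 late overlapped 1776 to 4868 early, and for hist1h2a2, 508 and 7471 late overlapped 197 to 3201 early. The fitted late over early log2 values were −1.15 ± 0.38 for h1m, −2.05 ± 0.55 for h2af1al, 1.17 ± 0.80 for h2ax and 1.11 ± 1.45 for hist1h2a2 (SE, 6 libraries). The 5.3 hpf library sets the sign for the last 2 genes: without it they were −0.31 for h2ax and −0.83 for hist1h2a2. h1m was at −0.44 without 5.3 hpf and at −1.86 without 3.5 hpf. Over all stages the bound over unbound log2 was 2.66 ± 0.51 for h1m, 2.12 ± 0.64 for h2af1al, 0.75 ± 0.47 for h2ax and 0.58 ± 0.85 for hist1h2a2 (SE, 12 libraries). On the scale of the control-like sequences h2ax was at −0.73 and hist1h2a2 at −0.90, while h1m was at 1.18 and h2af1al at 0.64.

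Unfractionated RNA holds both fractions, so with all libraries on 1 scale and no other difference between them an unfractionated level would not lie below both. For part of the genes it did. It was below both fractions at 4 stages for h2ax, at 2 for h2af1al and at 1 each for h1m and hist1h2a2. Over all genes this was so for 17.4% to 25.3% of genes, depending on the stage. Ratios between genes within a library do not depend on scaling, and some of these lay outside both fractions too. In TPM, h1m over the sum of h2af1al, h2ax and hist1h2a2 was 4.06 unfractionated in the egg, against 1.61 bound and 0.74 unbound. At 16 cells it was 2.68 against 1.38 and 0.79, and at 3.5 hpf 3.0 against 2.54 and 0.50. It lay just above both at 128 cells and between them at the other stages. The reason was not tested. Unfractionated levels are therefore compared with each other and not with the fractions.

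Other histone genes were tested across the whole table, with limma on log2 of the normalized count plus 1 and Benjamini-Hochberg adjustment. Each p sets an effect against the spread between stages, since no condition has replicates. Of all 24893 genes tested, 8.46% were higher and 7.1% lower in the bound than in the unbound fraction. Higher genes made up 54.4% of these calls, against 15.6% with library totals, 77.5% with median centring and 1.3% on the scale of the control-like sequences. Of 7 cluster histone genes beside hist1h2a2, 3 were higher, 0 were lower and 4 did not pass, with a median log2 of 1.16 against −0.01 over all genes. Without adjustment 0 were lower at p under 0.05, and edgeR on single transcripts called 1 higher and 0 lower. On the scale of the control-like sequences 0 of the 7 were called in either direction by limma, and hist1h2a7, one of the 3, was at −0.32. Without the 16-cell stage 1 of the 7 was called higher.

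h3c13a, a cluster H3 gene, was 4.30-fold higher in the bound than in the unbound fraction (log2 2.11 ± 0.33 SE, adjusted p = 0.00208 by limma). Its bound levels were 1502 to 13037 normalized counts and its unbound levels 341 to 4483, and bound was above unbound at every stage. hist2h3c, another H3 gene, was 3.09-fold higher (1.63 ± 0.39, adjusted p = 0.0176 by limma), and its call ended without the 16-cell stage (1.44) or without the 128-cell stage (1.29). It ended too with library totals and on the scale of the control-like sequences (0.15). hist1h2a7, an H2A gene, was 2.24-fold higher (1.16 ± 0.33, adjusted p = 0.0351 by limma), and its call ended when the egg, 16-cell, 128-cell or 5.3 hpf stage was left out (0.98 to 1.26). In all, this call was kept in 6 of 13 alternatives.

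By stage, the cluster genes had a course like that of h2ax and hist1h2a2. In all 7, the ratios at 16 and 128 cells were above those in the egg and at 1 cell, and the ratio at 3.5 hpf was below that at 128 cells and at 5.3 hpf. For hist2h2l, 1 of the 7, this rests on low counts. It had 8.22 normalized counts bound and 0 unbound at 16 cells, and 16.85 and 3.74 at 128 cells. Over all 24893 genes, 8.42% met both conditions, which were set after the ratios had been seen. hist1h2a4 for one had log2 ratios of 0.11, −0.47, 2.26, 2.53, 0.21 and 1.75. At 3.5 hpf, however, its ratio stood above the median of all genes, and no other hist1h2a gene came near the −5.15 of hist1h2a2. The closest value in the list was −5.01 for hist2h2l, with 0.98 normalized counts bound and 62.9 unbound.

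**Figure D4:**
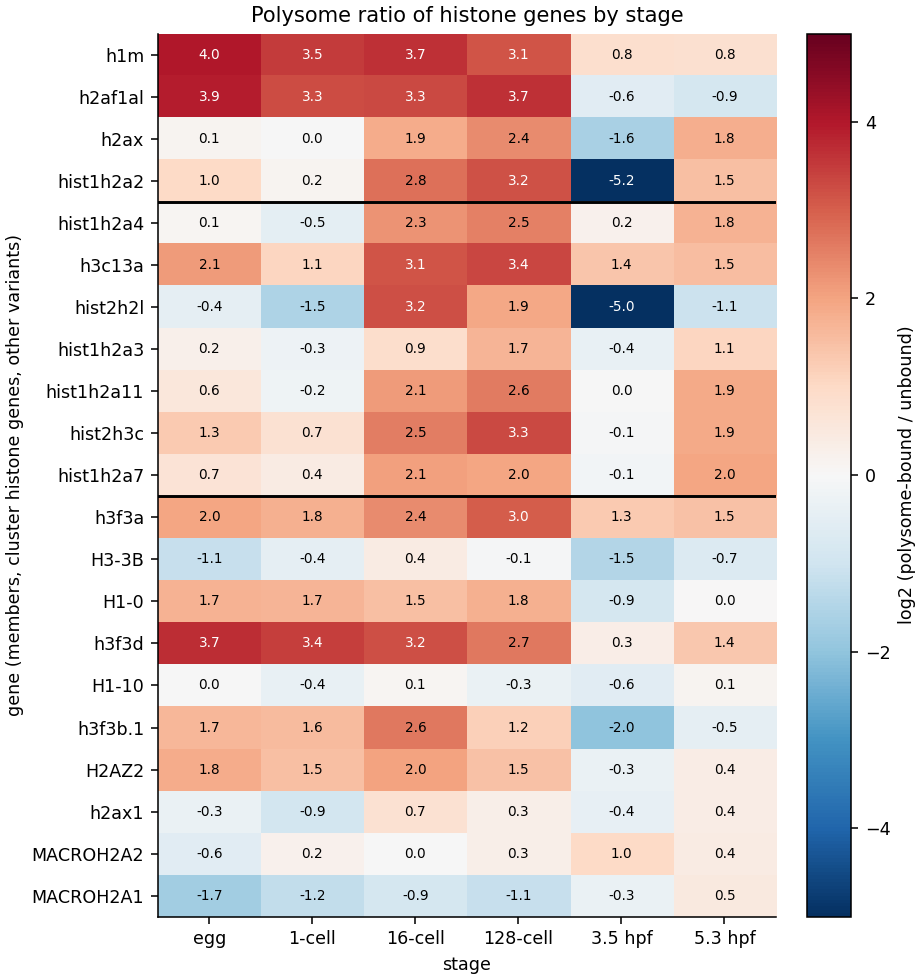
Log2 of polysome-bound over unbound (colour, with each value written in its cell) by stage for the 4 mRNAs at the top, the 7 other cluster histone genes in the middle and 10 other H1, H2A and H3 variant genes at the bottom, each cell from 1 bound and 1 unbound library. The cluster genes are redder at 16 and 128 cells than in the egg and at 1 cell, as h2ax and hist1h2a2 are, while h3f3d (3.68 in the egg) and H2AZ2 (1.85 in the egg) share with h1m and h2af1al high values from the egg to 128 cells and low ones at 3.5 hpf.

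Of 10 other H1, H2A and H3 variant genes, 3 were higher in the bound fraction, 0 lower and 7 did not pass. Over all genes 8.46% were higher and 7.1% lower, and the median log2 of the 10 was 0.49. By edgeR 1 was higher and 0 lower of the 6 that could be tied to a transcript, and 1 was lower at unadjusted p under 0.05 by limma. On the scale of the control-like sequences 0 were higher and 5 lower. The 3 included h3f3d and h3f3a, which encode the replication-independent H3.3. h3f3d was at 2.45 ± 0.42 (adjusted p = 0.00337 by limma), with 3997 to 22184 normalized counts bound and 1308 to 6428 unbound. h3f3a was at 1.99 ± 0.29 (adjusted p = 0.00155 by limma). H2AZ2, which encodes an H2A.Z variant, was 2.21-fold higher, and its call ended when any of the 4 early stages was left out (0.97 to 1.08). In all, this call was kept in 5 of 13 alternatives, and the value was −0.34 on the scale of the control-like sequences.

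The late minus early difference in ratio, which was −2.77 for h1m and −4.26 for h2af1al, was called for 2.36% of all genes as higher and 5.39% as lower. Higher genes made up 30.4% of calls, against 49.1% with library totals, 51.9% with TMM factors, 48.4% with median centring and 91.5% on the scale of the control-like sequences. Among the 10 variant genes 3 were lower and 0 higher by limma (1 higher at unadjusted p under 0.05). Of the 6 that could be tied to a transcript, h3f3d and h3f3b.1 among them, edgeR called 0 lower and 0 higher (2 at unadjusted p under 0.05). On the scale of the control-like sequences limma called 0 of the 10 lower and 0 higher. h3f3b.1, an H3.3 gene, was at −3.01 ± 0.57 (adjusted p = 0.0148 by limma), h3f3d at −2.40 ± 0.43 (adjusted p = 0.0125 by limma) and H2AZ2 at −1.70 ± 0.38 (adjusted p = 0.0284 by limma). The call for H2AZ2 ended in 9 of 12 alternatives, library totals, TMM factors and median centring among them, with values down to −0.57. The median of the 10 was −0.83 against −0.51 over all genes. Of the 7 cluster genes 0 were called in either direction by limma (1 lower at unadjusted p under 0.05) and 0 by edgeR. Without the 3.5 hpf stage h3f3b.1 was at −2.24, h3f3d at −1.89 and H2AZ2 at −1.35, and none of these calls held. Only 5.3 hpf is then left as a late stage, and 0 genes in the whole table passed in either direction by limma, against 1418 higher and 2871 lower at unadjusted p under 0.05. edgeR with all stages called 92 genes higher and 37 lower.

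In unfractionated RNA, 22.5% of 23949 genes were higher and 13% lower late than early, and higher genes made up 63.3% of calls, against 38.2% with median centring. Of the 7 cluster histone genes 0 were called by limma, 0 had an unadjusted p under 0.05 and 0 were called by edgeR, and their median log2 was 0.98 against 0.23 over all genes. Without 3.5 hpf, when 5.3 hpf is the only late library, 4 of the 7 were called higher by limma. Of the 10 variant genes 3 were higher and 0 lower, with a median of 1.46 (6 higher without 3.5 hpf, 1 without the egg). Further, 0 were lower at unadjusted p under 0.05 by limma and 0 by edgeR. h3f3a was 4.54-fold higher late (2.18 ± 0.48, adjusted p = 0.0123 by limma), with 15396 and 57958 normalized counts late and 5089 to 7948 early. MACROH2A1, which encodes macroH2A, was 6.57-fold higher (2.71 ± 0.72), and the linker histone gene H1-10 4.45-fold (2.15 ± 0.54). Both calls ended without the 5.3 hpf library (1.49 for MACROH2A1 and 1.47 for H1-10) and without the egg (2.42 and 2.07), and that for MACROH2A1 also without the 1-cell (2.66) or the 128-cell library (2.78). H1-10 had 131 and 340 normalized counts late and 36.1 to 70.2 early.

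Among 14 genes for 3′ end processing and regulation of histone mRNA, 1 was higher and 5 lower late than early. Over all genes 22.5% were higher and 13% lower, and the median log2 of the 14 was −0.29. slbp2, which encodes a stem-loop binding protein known in frogs as the oocyte form, was 8.49-fold lower (−3.09 ± 0.57, adjusted p = 0.00675 by limma). Its unfractionated levels were 3862 and 704 normalized counts late and 13018 to 15631 early, so the groups were far apart. On polysomes slbp2 had 548 and 144 normalized counts late and 6983 to 15516 early, and its late minus early ratio was −2.79 ± 0.45. That call ended without the 3.5 hpf stage (−2.9995) or without 5.3 hpf (−2.57). casp8ap2, which encodes FLASH, was 2.56-fold lower, and LSM11, a subunit of the U7 particle that cuts histone mRNA, 3.49-fold lower, a call that ended without the egg (−1.74). The 1 gene that was higher, a MIF4GD gene (ENSDARG00000102080.1) for a partner of the stem-loop binding protein, had 67.0 and 724 normalized counts late and 0 to 5.17 early.

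Between the fractions, 2 of the 14 were higher bound and 1 lower, against 8.46% and 7.1% of all genes. The median was −0.35 (0 higher and 10 lower on the scale of the control-like sequences). CSTF2, a cleavage stimulation factor subunit, was 5.21-fold higher bound (2.38 ± 0.22) and LSM11 3.81-fold lower (−1.93 ± 0.21). The call for UPF1, an RNA helicase of histone mRNA decay, at 0.97 ± 0.25, ended without the 1-cell, 16-cell or 128-cell stage (0.88 to 1.01). It ended too with library totals and on the scale of the control-like sequences (−0.51). LSM11 was below 0 at all 6 stages, from −2.25 in the egg to −1.53 at 5.3 hpf, unlike each of the 4 histones.

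Of 28 histone chaperone genes, 12 were higher bound than unbound and 3 lower, against 8.46% and 7.1% of all genes. The median was 0.46 (0 higher and 12 lower on the scale of the control-like sequences). ANP32E, a chaperone of H2A.Z, was 5.94-fold higher (2.57 ± 0.35) and SUPT16H, a subunit of FACT, 5.56-fold (2.48 ± 0.35). ubn1, of the HIRA complex that deposits H3.3, was 3.42-fold lower (−1.77 ± 0.27), while CABIN1 of the same complex was 3.06-fold higher (1.61 ± 0.23). The chaperones thus went in both directions, within 1 complex too. Late against early, 2 were higher and 9 lower, against 22.5% and 13% of all genes. The median was 0.05 (9 higher without 3.5 hpf, 0 without the egg). NASP, which binds H1 and H3-H4, was 3.53-fold lower (−1.82 ± 0.23), with 37543 and 22291 normalized counts late and 93938 to 118528 early. Both ASF1B genes, for an H3-H4 chaperone, were lower, at −3.36 ± 0.55 (ENSDARG00000043713.2) and −2.23 ± 0.22 (ENSDARG00000101037.1).

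Of 27 genes of H2AX signalling at DNA breaks, 7 were higher bound than unbound and 3 lower, against 8.46% and 7.1% of all genes. The median was 0.01 (1 higher and 14 lower on the scale of the control-like sequences). PPP4C (ENSDARG00000076439.3), a phosphatase that acts on phosphorylated H2AX, was 6.58-fold higher (2.72 ± 0.36), MRE11, a nuclease at breaks, 4.92-fold (2.30 ± 0.25) and the kinase gene PRKDC 3.67-fold (1.87 ± 0.23). The other PPP4C gene (ENSDARG00000070570.4) was at −0.46 ± 0.27 and did not pass. RAD17, a checkpoint loader, was 2.64-fold lower (−1.40 ± 0.27). Late against early, 1 was higher and 11 lower, against 22.5% and 13% of all genes. The median was −0.88 (7 lower without the 1-cell and 16 without the 3.5 hpf library), while h2ax itself was at 1.17 ± 0.80. The lower ones included the ubiquitin ligase gene rnf8 (−1.59 ± 0.26) and HUS1 of the checkpoint clamp (−2.39 ± 0.41). The 1 higher gene was BAZ1B, for a kinase of H2AX (0.67 ± 0.18). Its call ended with median centring (0.15), without the egg (0.67) or without the 1-cell library (0.62).

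The genes whose levels most resembled each histone were picked by Pearson correlation over the 18 libraries among 16883 genes. All points share the library scaling, so these values are a description. h1m was most like PCM1 (r = 0.99), a centriolar satellite protein gene, the helicase gene recql4 (0.99) and med1l (0.98). h2af1al was most like the Argonaute gene ago3a (0.97), MED13 (0.96), a Mediator subunit, and KLHL8 (0.96). For h2ax these were the cluster genes hist1h2a7 (0.93) and hist2h3c (0.93), and si:ch1073-153i20.6 (0.92). For hist1h2a2 these were PXDN (0.89), CD109 (0.86) and pttg1ipa (0.84), none of them a histone gene. Between the 4, r was 0.87 for h1m with h2af1al and 0.58 for h2ax with hist1h2a2. It was between −0.11 and −0.06 for each maternal with each other gene.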

How the data were processed

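One polysome-bound, unbound and unfractionated library was deposited for each of 6 stages (18 libraries, 1 per condition). The authors' quantification of 52340 entries, 4 control-like sequences among them, gives TPM and estimated counts, per the file headers. TPM corrects for length and library total. The gene table deposited by the authors holds a signal for 27015 genes that is treated as reads over a size factor. Whole reads came back for 45.8% to 49.7% of values, at a tolerance of 0.001. Symbols for 22547 genes came from a gene name table. Per the submitters' processing notes, Salmon 0.6.0, STAR 2.4.2a, GSNAP, Cufflinks 2.2.1, DESeq2, cutadapt 1.9.1 and bcl2fastq 2.16.10 were used with GRCz10; their order is not given. Stranded libraries were made, per the labels.

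Genes were tied to a transcript where reads differed by under 0.51 in every library. limma 3.58.1 (R 4.3.3) with a trend was fitted to log2(normalized count + 1) for genes with at least 10 in at least 2 libraries, with Benjamini-Hochberg adjustment at 0.05. There were 3 comparisons: bound over unbound, blocked by stage, late over early unfractionated, and late minus early bound over unbound. They used 12, 6 and 12 libraries and left 5, 4 and 4 residual degrees of freedom. Values for 4 histones carry no p. The estimated counts were rounded for edgeR 4.0.16, an alternative on single transcripts. The limma fits were run on simulated counts with known changes. Those counts held no other differences between stages and no shifts in scaling, so they do not test these features of the data. Folds are on the log2(value + 1) scale, which understates low genes.

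The histones and the gene lists were chosen with earlier results of these data known. Named genes are the 4 histones, the 3 genes most correlated with each at 100 normalized counts in 2 libraries, and up to 3 genes per list, comparison and direction with the smallest p among those that passed. One gene that the rule names is not reported here. Other symbols are given for a stated reason.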

Additional observations from a re-analysis of the deposited data

Results flagged for a closer look

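For 13 genes of the histone lists, late and early stages had different ratios of bound over unbound by the test of that difference (limma, adjusted p under 0.05, 12 libraries). They were drawn from these lists by the naming rule, so they are not an unselected count. The ratio was lower late than early for the H3.3 genes h3f3d (−2.40) and h3f3b.1 (−3.01), for H2AZ2 (−1.70), for slbp2 (−2.79), for the chaperone genes SET (ENSDARG00000003920.7, −1.64) and SUPT16H (−1.64) and for PPP4C (ENSDARG00000076439.3, −1.73). It was higher late than early for the cleavage factor genes CPSF2 (2.32) and CPSF1 (1.92), for CHAF1B (1.85) and nap1l4a (2.81), which encode chaperones, and for PPM1D (ENSDARG00000009273.7, 1.43) and XRCC6 (1.89). Other genes of the same symbols did not pass. Those of SET (ENSDARG00000031495.5, 0.56) and PPP4C (ENSDARG00000070570.4, 0.47) had the opposite sign, and that of PPM1D (ENSDARG00000021380.6, 0.90) the same sign. All 13 calls ended without the 3.5 hpf stage, when 5.3 hpf is the only late stage and 0 genes of the whole table passed by limma (1418 higher and 2871 lower at unadjusted p under 0.05). The 13 values kept their sign then, and 5 were larger and 8 smaller, with slbp2 at −2.9995, nap1l4a at 3.05, CHAF1B at 2.18, SUPT16H at −1.91 and PPP4C at −2.26 among the larger. Other alternatives ended calls too. SET kept its call in 1 of 12 alternatives, SUPT16H in 2, and PPP4C and H2AZ2 in 3 each, with losses under library totals, TMM factors, median centring and the control-like sequences. CHAF1B and PPM1D kept theirs in 6, CPSF2 and XRCC6 in 7, CPSF1 and slbp2 in 9, and h3f3d, h3f3b.1 and nap1l4a in 10. edgeR is not among these 12. Of the genes tied to a transcript it called 0 in either direction in each of these lists. Those tied included h3f3d, h3f3b.1, SET, CHAF1B and PPM1D of the genes named here.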

How the results depend on the processing

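Bound over unbound called 2106 genes higher and 1768 lower (54.4% of calls higher). This became 1119 and 6035 with library totals (15.6%), 161 and 12584 with the control-like sequences (1.3%), where the median log2 was −1.34 and not −0.01, and 3268 and 949 after centring on the median (77.5%). It became 1440 and 395 without the stage block and 1359 and 389 by edgeR. Leaving out 1 stage gave 1132 to 2546 higher and 699 to 1961 lower. Late over early unfractionated called 5380 higher and 3120 lower (63.3%), against 4067 and 6589 with median centring (38.2%) and 1765 lower by edgeR, and 1556 to 4992 higher and 1662 to 5039 lower without 1 stage. Late minus early ratio called 587 and 1342 (30.4%), against 894 lower with library totals, 896 and 830 with TMM, 321 and 30 with the control-like sequences (91.5%), 92 and 37 by edgeR, and 0 to 654 higher and 0 to 1461 lower without 1 stage, the 0 being without 3.5 hpf.

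Reversals in bound over unbound were h2ax at −0.73, hist1h2a2 at −0.90, hist1h2a7 at −0.32, H2AZ2 at −0.34 and UPF1 at −0.51 with the control-like sequences, and hist1h2a2 at −0.0017 with library totals. Without 5.3 hpf, late over early reversed to −0.31 for h2ax and −0.83 for hist1h2a2. The late minus early ratio of h2ax became 0.14 with the control-like sequences and 0.73 without 3.5 hpf. Over the alternatives that leave out 1 stage, late over early ranged from −0.31 to 2.64 for h2ax and from −0.83 to 3.05 for hist1h2a2, and the late minus early ratio of h2ax from −2.70 to 0.73. The cause was not tested. For h1m and h2af1al no direction reversed in the alternatives run: h1m was 1.18 to 3.03, −1.86 to −0.44 and −2.91 to −1.64 in the 3 comparisons, and h2af1al 0.64 to 2.71, −2.60 to −1.49 and −4.40 to −3.13.

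Stage pairs the bound with the unbound library and was the block in that comparison. The labels carry no replicate numbers, so no fit with a replicate block was made. The control-like scaling was not run on unfractionated libraries, which held 5 to 59 such reads. Depth limits hist1h2a2 at 3.5 hpf bound (145 reads) and hist2h2l.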
